A study of Mus musculus with 6 samples.

Results

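The 43 genes described here encode the subunits of the proteasome and of the immunoproteasome, together with the activators, the inhibitor and the maturation protein that act on them. They were taken as a named list and found by Entrez gene ID among the 27179 genes of a count table from sorted mouse dendritic cells, and all 43 were found. RNA-seq had been run on 6 libraries, each made from splenic dendritic cells of C57BL/6 mice that had been sorted as negative for CD8. The series names 3 of them CpG-pretreated and the other 3 untreated, and the cells were lysed directly after the sort, with no culture. No source used here gives the CpG sequence, its dose, the interval before collection, the age of the mice or whether a library is 1 mouse or a pool. CpG DNA is sensed by Toll-like receptor 9, and the series title calls the cells paralysed after a systemic inflammatory syndrome, so the comparison addresses how the proteasome transcripts of such cells differ from those of untreated mice. The libraries of both groups carry the numbers 2, 3 and 4.

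The proteasome is the barrel-shaped protease that degrades ubiquitin-tagged proteins. Its core, called 20S, is built of alpha and beta rings, and the beta subunits encoded by Psmb5, Psmb6 and Psmb7 carry the active sites. After exposure to interferon, cells replace them in newly built cores with the immuno subunits Psmb8, Psmb9 and Psmb10, which change the peptides produced and favour those that bind MHC class I molecules. The 19S cap, an ATPase ring and a set of non-ATPase subunits, recognises and unfolds substrates, while PA28, made of Psme1 and Psme2, is an interferon-inducible activator that docks on the core instead of the cap. Dendritic cells are known for a high content of immunoproteasome at rest.

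The starts of the immuno subunit genes are shown first, because these genes rose in the fit that compares libraries of equal number (below), beside those of Psmb5 and Psmb6, which did not pass the test. Each window runs from 250 bases before to 50 after the annotated start and is written in the direction of the gene, as given by RefSeq on GRCm38.p6. The windows are chr17:34197945-34198244 (plus strand) for Psmb8, chr17:34187281-34187580 (minus strand) for Psmb9, chr8:105938343-105938642 (minus strand) for Psmb10, chr14:54617946-54618245 (minus strand) for Psmb5 and chr11:70525107-70525406 (plus strand) for Psmb6. Capitals mark matches, on either strand, to TTCNNNGAA (the GAS pattern of interferon-gamma response elements), GAAANNGAA (a pattern of interferon regulatory factors), TGACNNNGC or TGAGNNNGC (the antioxidant pattern bound by Nfe2l1 and Nfe2l2) and CCAAT (bound by NF-Y).
Psmb8: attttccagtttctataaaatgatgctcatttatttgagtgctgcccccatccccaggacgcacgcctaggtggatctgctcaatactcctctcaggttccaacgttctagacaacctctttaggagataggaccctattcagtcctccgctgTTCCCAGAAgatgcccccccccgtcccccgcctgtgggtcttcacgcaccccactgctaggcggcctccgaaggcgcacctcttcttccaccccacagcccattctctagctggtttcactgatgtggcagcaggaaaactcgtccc
Psmb9: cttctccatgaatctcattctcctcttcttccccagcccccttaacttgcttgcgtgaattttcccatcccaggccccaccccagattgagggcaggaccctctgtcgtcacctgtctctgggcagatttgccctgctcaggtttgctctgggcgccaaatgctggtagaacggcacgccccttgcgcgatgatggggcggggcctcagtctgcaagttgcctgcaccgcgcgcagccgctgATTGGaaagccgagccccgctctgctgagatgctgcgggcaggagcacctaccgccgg
Psmb10: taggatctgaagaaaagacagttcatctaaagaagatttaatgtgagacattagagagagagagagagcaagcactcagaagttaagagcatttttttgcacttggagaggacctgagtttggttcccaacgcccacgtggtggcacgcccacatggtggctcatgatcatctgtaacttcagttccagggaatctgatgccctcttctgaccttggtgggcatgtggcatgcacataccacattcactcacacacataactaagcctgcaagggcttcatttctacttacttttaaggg
Psmb5: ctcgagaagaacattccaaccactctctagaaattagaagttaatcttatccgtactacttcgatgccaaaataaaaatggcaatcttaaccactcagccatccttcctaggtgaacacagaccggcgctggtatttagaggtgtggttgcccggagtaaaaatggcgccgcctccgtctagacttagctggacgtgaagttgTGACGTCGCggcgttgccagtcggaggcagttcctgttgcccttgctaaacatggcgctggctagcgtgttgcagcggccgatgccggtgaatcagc
Psmb6: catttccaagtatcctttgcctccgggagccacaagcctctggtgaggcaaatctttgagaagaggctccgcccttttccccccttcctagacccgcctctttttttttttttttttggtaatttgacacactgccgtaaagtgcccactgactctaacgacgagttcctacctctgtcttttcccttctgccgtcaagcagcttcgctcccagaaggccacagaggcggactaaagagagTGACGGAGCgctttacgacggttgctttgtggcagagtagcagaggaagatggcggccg

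The Psmb8 window held 1 GAS match, TTCCCAGAA, which begins 97 bases before the start. The Psmb9 window held 1 CCAAT match, 8 bases before the start, and shares 275 of its 300 bases with the window of Tap1, the peptide transporter gene that runs the other way. None of the 4 patterns was found in the Psmb10 window, which says only that these letters are not in it. Psmb5 and Psmb6 each held 1 antioxidant match, beginning 47 and 9 bases before the start. Over all 32851 windows of the table, 8.30% held the GAS pattern, 8.56% the interferon regulatory factor pattern, 27.8% the antioxidant pattern and 37.4% CCAAT. Of the 43 genes, 37 had a window, and some had more than 1, which made 40. Among these 40 windows 2, 7, 16 and 13 held them. The matches are letters in a window and were not tested as binding sites.

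Total counts were 7855500 to 8228140 per library, so that all 43 genes were covered in every library and passed the filter on low counts. Summed CPM (read counts scaled to a common library total) of markers of conventional CD8-negative dendritic cells, 11 of 11 found, were 5723 to 6224 in untreated and 4850 to 5978 in CpG-pretreated libraries, and Itgax, Flt3, Zbtb46 and Sirpa were all present. Marker sums of other cells were far lower in most cases. They came to 127 to 161 and 126 to 170 CPM for CD8-positive dendritic cells (cDC1, 7 of 7 genes), to 118 to 125 and 121 to 157 CPM for plasmacytoid dendritic cells (6 of 6), to 752 to 973 and 894 to 1114 CPM for monocytes (6 of 6) and to 505 to 661 and 350 to 473 CPM for red pulp macrophages (10 of 10). Neutrophil (8 of 8 genes), B cell (7 of 7), plasma cell (5 of 5), T cell (7 of 7), NK cell (6 of 6) and platelet (4 of 4) markers were at 3.32 to 76.3, 56.4 to 72.5, 168 to 213, 40.7 to 44.6, 0.246 to 1.75 and 0.738 to 1.63 CPM in untreated libraries. In CpG-pretreated libraries they were at 53.4 to 103, 46.3 to 64.7, 158 to 251, 41.7 to 46.7, 0.252 to 3.56 and 1.13 to 3.42 CPM. Erythroid markers (8 of 10 genes found, Hba-a1 listed at 0 in all libraries) were at 21.3 to 87.1 and 206 to 980 CPM, and markers of dividing cells (5 of 5) at 669 to 791 and 1144 to 1322 CPM. Within these lists, edgeR with the block called 4 of 11 CD8-negative conventional dendritic cell markers lower, with 9 of 11 below 0. It called 3 of 7 cDC1 markers higher (Xcr1, Tlr3 and Itgae), with 2 of 7 below 0. It also called 8 of 10 red pulp macrophage markers lower and 5 of 5 dividing-cell markers higher. Of those tested, 2 of 5 erythroid, 1 of 6 monocyte and 1 of 6 neutrophil markers were called higher. Of 5 B cell markers tested, 1 was called lower. Over all genes tested, 4.73% were called higher and 3.78% lower with the block. Without the block, edgeR called 1 of 11 CD8-negative conventional dendritic cell and 3 of 10 red pulp macrophage markers lower. It called 3 of 5 erythroid and 1 of 5 dividing-cell markers higher and no other marker, against 0.974% of all genes called either way. The part of these markers in the results below was not tested. In these bulk libraries fewer cells of a type and less RNA per cell cannot be told apart.

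The transcripts of the immuno subunits were already abundant in untreated cells. Per kilobase of gene length, Psmb8 stood at 327 ± 53.4 CPM per kb, Psmb9 at 312 ± 53.1 and Psme1 at 299 ± 55.8 (SD, n = 3 untreated libraries), the highest levels of the 43 genes. These neighbours in the order lay within their spread of each other. Pomp, the chaperone that matures the core, followed at 203 ± 42.9 CPM per kb and Psmb4, a structural beta subunit, at 149 ± 36.6, whereas Psmb10 stood at 104 ± 16.8. At the other end were the cap assembly chaperone Psmd9 at 7.64, the alpha subunits Psma5 and Psma3 at 10.2 and 10.9, and Psmf1, which encodes the inhibitor PI31, at 12.03 CPM per kb. The median of the 43 was 61.1 CPM per kb.

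**Figure D1:**
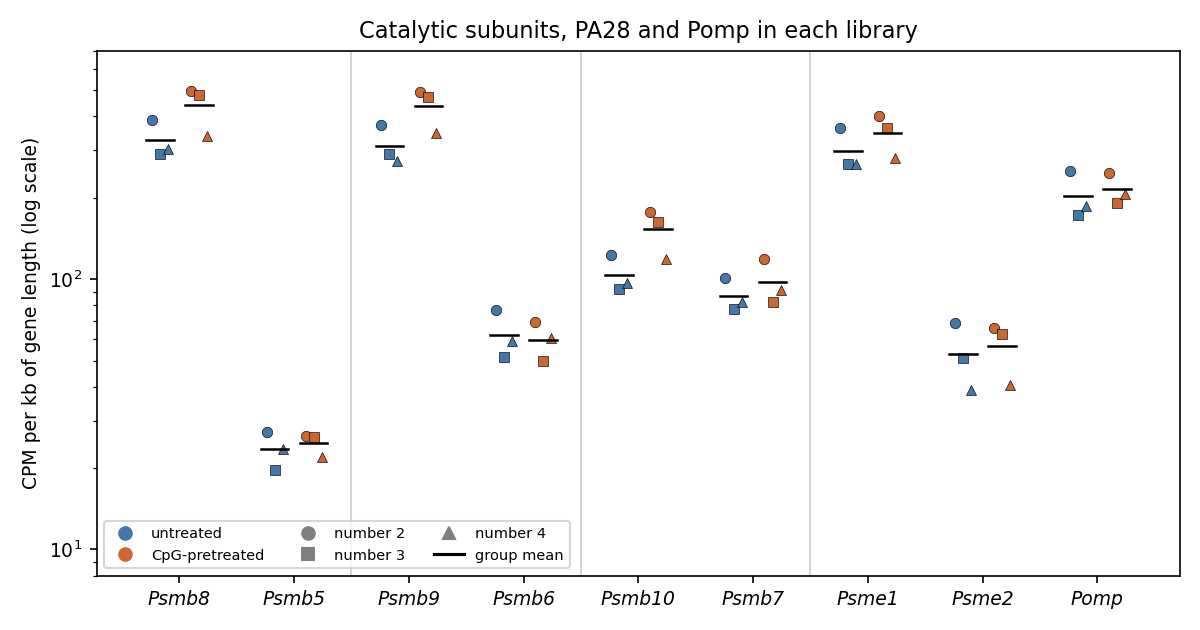
Level of the catalytic subunits, the PA28 subunits Psme1 and Psme2, and Pomp in each of the 6 libraries, in CPM per kb of gene length on a log scale. Colours give the group, symbols the library number and lines the group mean of 3. The immuno subunits Psmb8 and Psmb9 lie above their constitutive partners Psmb5 and Psmb6 in every library, and the circles, the libraries numbered 2, are the highest of their group for each gene drawn.

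After CpG pretreatment the 3 immuno beta subunits had the largest increases of the 43 genes, by 1.34-fold to 1.47-fold, and they passed the test only when libraries were compared within their number. Psmb8, which takes the place of Psmb5 (Entrez 16913; GRCm38 chromosome 17, 34198195 to 34201454), was at 475, 356 and 370 CPM in untreated libraries 2, 3 and 4 and at 608, 588 and 416 CPM in the CpG-pretreated libraries of those numbers. The groups overlapped, since CpG-pretreated library 4 was below untreated library 2, but within each number the CpG-pretreated library was the higher. The log2 fold change was 0.42 (SE 0.17, edgeR adjusted p = 0.338), and 0.42 (SE 0.10, edgeR adjusted p = 0.0214) with the replicate number as a block.

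Psmb9, the partner of Psmb6 (Entrez 16912; chromosome 17, 34182030 to 34187330), was at 300, 233 and 220 CPM untreated and 396, 381 and 280 CPM after CpG (libraries 2, 3 and 4). Again CpG-pretreated library 4 was the lowest of its group and lay below untreated library 2. The log2 fold change was 0.49 (SE 0.17, edgeR adjusted p = 0.247), and 0.48 (SE 0.08, edgeR adjusted p = 0.00272) with the block. Psmb10, the partner of Psmb7 (Entrez 19171; chromosome 8, 105935728 to 105938392), was at 156, 117 and 123 CPM untreated and 225, 206 and 151 CPM after CpG (libraries 2, 3 and 4). Here too CpG-pretreated library 4 lay below untreated library 2. Psmb10 had the largest log2 fold change of the 43 genes, 0.56 (SE 0.17, edgeR adjusted p = 0.193), and 0.55 (SE 0.10, edgeR adjusted p = 0.00300) with the block.

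By edgeR's quasi-likelihood test without the block, 0 of the 43 genes were called at an adjusted p under 0.05, where 0.974% of all 11602 genes tested were called. At an unadjusted p under 0.05 there were 4, namely Psmb8, Psmb9, Psmb10 and Psmf1, where 12.8% of all genes were under it, and DESeq2 and limma-voom also called 0 of the 43. With the block 3 of 43 rose (6.98%), against 4.73% of all genes, and 0 fell, against 3.78%. The 3 that rose were the 3 immuno beta subunits, which are 3 of 3 in that group and 0 of 40 elsewhere. Over the list as a whole the share called is thus near that of all genes. The calls with the block depended on which numbers were kept. Without number 2, Psmb9 was called (1 of 43, against 2.27% of all genes called higher), without number 3, Psmb10 (1 of 43, against 2.20%), and without number 4, Psmb8, Psmb9, Psmb10, Psme1, Psme3 and Psmf1 (6 of 43, against 7.99%). Psmb8 then had adjusted p-values of 0.291, 0.211 and 2.54e-06 by edgeR. Each of these fits estimates 3 terms per gene from 4 libraries. Its p-values therefore rest mostly on the spread shared across genes and little on the replicates of the gene itself.

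**Figure D2:**
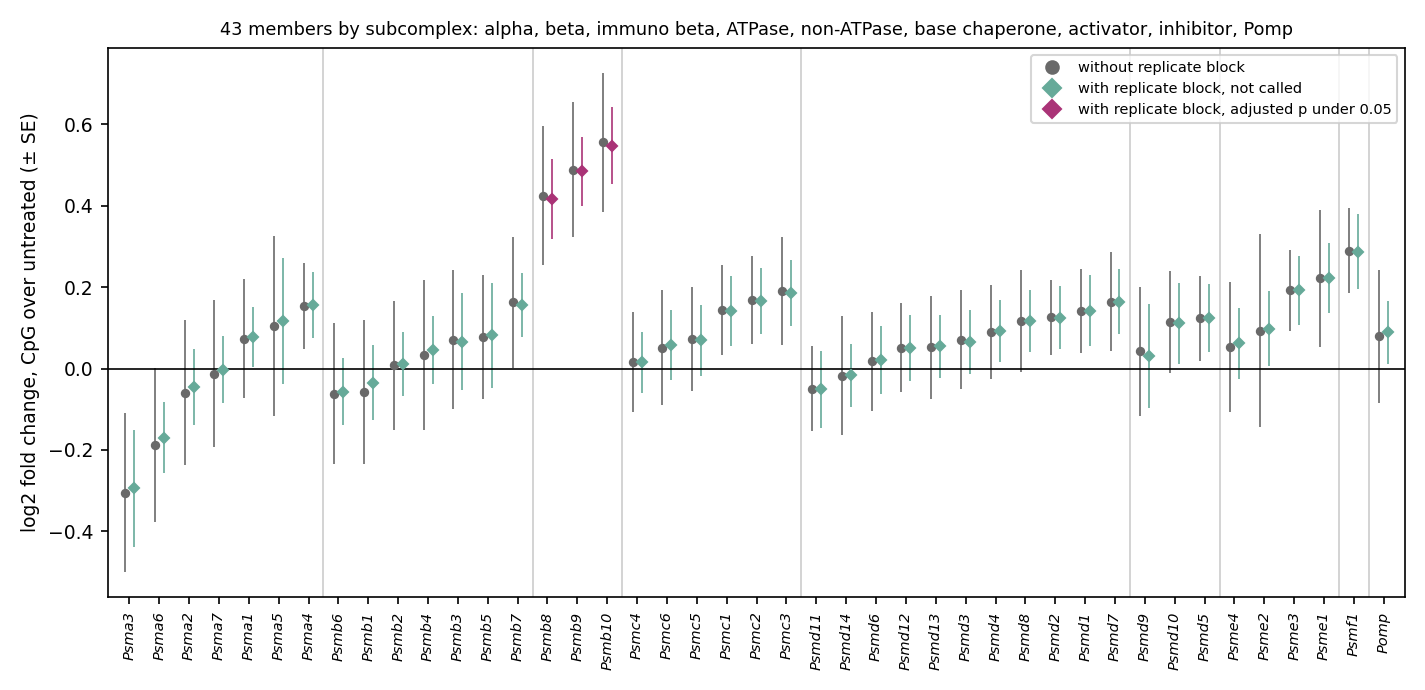
Log2 fold change of CpG-pretreated over untreated for each of the 43 genes, with its standard error, without the block (grey circles) and with the replicate number as a block (diamonds). Genes are grouped by subcomplex, and the 3 immuno beta subunits, at 0.42 to 0.55 with the block, are the only diamonds in the colour of an adjusted p under 0.05.

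The active-site partners that the immuno subunits replace had small differences that did not pass the test. Psmb5, the chymotrypsin-like subunit (Entrez 19173; chromosome 14, 54614120 to 54617995), was at 23.6, 17.1 and 20.5 CPM untreated and 22.8, 22.7 and 19.1 CPM after CpG (libraries 2, 3 and 4; log2 fold change 0.08, SE 0.15, edgeR adjusted p = 0.925). Psmb6, the caspase-like subunit (Entrez 19175; chromosome 11, 70525324 to 70527858), was at 79.5, 53.3 and 61.1 CPM and at 71.6, 51.5 and 62.6 CPM (-0.06, SE 0.17, edgeR adjusted p = 0.950). Psmb7, the trypsin-like subunit (Entrez 19177; chromosome 2, 38588046 to 38643952), was at 97.7, 75.4 and 79.8 CPM and at 115, 79.9 and 88.0 CPM (0.16, SE 0.16, edgeR adjusted p = 0.796). For all 3 genes the groups overlapped.

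Setting each immuno subunit against its partner within a library removes what both share, including the scaling between libraries. At the Psmb8 and Psmb5 site the immuno subunit made up 93.5%, 93.7% and 92.8% of the transcripts per kb untreated and 94.997%, 94.9% and 93.9% after CpG (libraries 2, 3 and 4). At the Psmb9 and Psmb6 site it made up 82.9%, 84.9% and 82.3%, and 87.7%, 90.5% and 85.2%. At the Psmb10 and Psmb7 site it made up 55.0%, 54.1% and 54.1%, and 59.9%, 66.3% and 56.7%. At each site all 3 CpG-pretreated libraries lay above all 3 untreated ones, with number 4 the lowest of the treated group.

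After CpG the ratio of the 2 transcripts was higher on the log2 scale by 0.33 for Psmb8 over Psmb5, from 3.80 ± 0.11 to 4.13 ± 0.16 (SD, n = 3 per group), by 0.54 for Psmb9 over Psmb6, from 2.33 ± 0.15 to 2.87 ± 0.36, and by 0.39 for Psmb10 over Psmb7, from 0.25 ± 0.03 to 0.65 ± 0.30. The exact two-sided permutation test over libraries gave p = 0.10 at each site, the smallest value that 3 against 3 can give, and 0.10 after Benjamini-Hochberg adjustment over the 3 sites, so none can pass 0.05. Within numbers 2, 3 and 4 the differences were 0.40, 0.32 and 0.27 for Psmb8 over Psmb5, 0.55, 0.76 and 0.31 for Psmb9 over Psmb6, and 0.29, 0.74 and 0.15 for Psmb10 over Psmb7. Without CpG-pretreated library 3 the group differences were 0.35 for Psmb9 over Psmb6 and 0.23 for Psmb10 over Psmb7. A sequence nearly identical to Psmb5 lies in an annotated pseudogene, as described below for several subunits, and 35.1% of the Psmb7 transcript is matched by the annotated transcripts of Nek6, so the levels of the shares at both of these sites are uncertain.

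**Figure D3:**
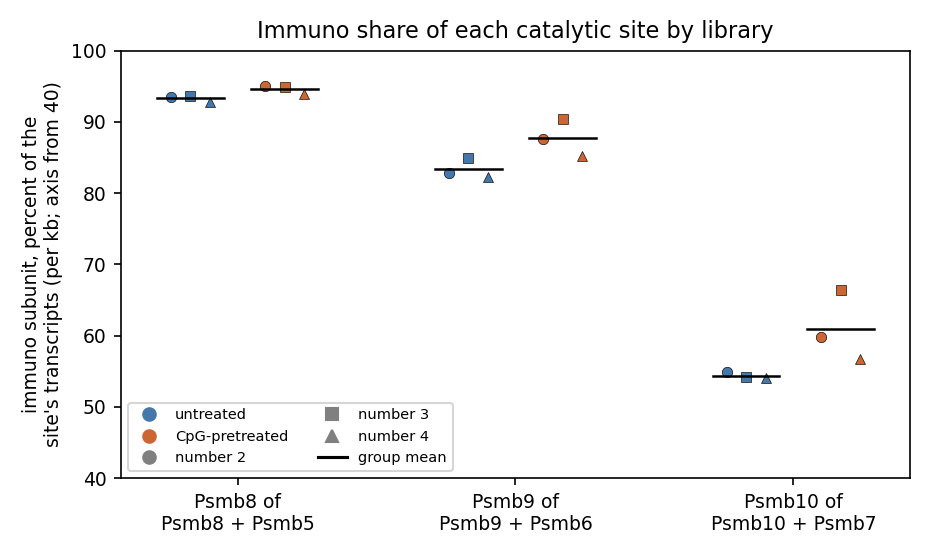
Share of the immuno subunit in the transcripts of each catalytic site, in percent of the pair's counts per kb, for each library (the axis begins at 40%). Symbols give the library number and lines the group mean of 3, and the CpG-pretreated libraries lie above the untreated ones at all 3 sites, by least in number 4.

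Neither subunit of PA28, the interferon-inducible activator, passed the test. Psme1, its alpha subunit (Entrez 19186; chromosome 14, 55578494 to 55581527), was at 355, 260 and 261 CPM untreated and 392, 355 and 275 CPM after CpG (libraries 2, 3 and 4), higher within each number but with overlapping groups (log2 fold change 0.22, SE 0.17, edgeR adjusted p = 0.703, and 0.138 with the block). The log2 fold change of Psme1 was 0.11 without CpG-pretreated library 2 and 0.40 without untreated library 2. Its neighbour Psme2, the beta subunit (Entrez 19188; chromosome 14, 55587440 to 55591101), was at 67.2, 50.01 and 38.0 CPM and at 64.6, 61.4 and 39.5 CPM (0.09, SE 0.24, edgeR adjusted p = 0.944). The Psme2 transcript is matched over 82.5% by Psme2b, as described below, so the level of Psme2 is uncertain. A difference between Psme1 and the immuno beta subunits was not tested. Psme3, the nuclear PA28-gamma activator, had 161, 170 and 182 CPM and 206, 200 and 180 CPM (0.19, SE 0.10, edgeR adjusted p = 0.494), and Psme4, which encodes the activator PA200, had a log2 fold change of 0.05 (SE 0.16). Psme1 over Psme3 was 5.90, 4.12 and 3.84 per kb untreated and 5.10, 4.76 and 4.10 after CpG, so the groups overlapped.

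Psmf1 was the 1 gene of the 43 whose libraries did not overlap between groups (2.33%, against 9.20% of all genes tested that were higher in every CpG-pretreated library), and it is singled out here after its values were seen. It was at 41.5, 43.3 and 43.02 CPM untreated and 57.4, 51.1 and 47.7 CPM after CpG (libraries 2, 3 and 4; Entrez 228769; chromosome 2, 151716062 to 151744199). The log2 fold change was 0.29 (SE 0.11, edgeR adjusted p = 0.278, and 0.0739 with the block). Pomp, which is needed to assemble cores of either kind (Entrez 66537; chromosome 5, 147860628 to 147875784), was at 185, 126 and 137 CPM and at 181, 141 and 151 CPM (0.08, SE 0.16, edgeR adjusted p = 0.931).

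No structural subunit of the core or the cap passed the test. Among the 40 genes other than the immuno beta subunits, log2 fold changes ran from -0.30 to 0.29 with a median of 0.07, 32 were above 0, and the smallest adjusted p with the block was 0.0739. Over all genes tested the median was -0.01, with 5671 of 11602 above 0. How many of the 40 were above 0 depended on single libraries: it was 17 without CpG-pretreated library 2 (median -0.03), 21 and 25 without untreated libraries 3 and 4, and 37 without untreated library 2 (median 0.19). The alpha ring, the gate of the core, had a median of -0.01 with 3 of 7 genes above 0, and the constitutive beta ring 0.03 with 5 of 7. All 6 ATPases of the cap, which unfold substrates, were above 0, with a median of 0.11 and a range of 0.02 to 0.19, but 3 of 6 were without CpG-pretreated library 2 or without untreated library 3, and 4 of 6 without untreated library 4. Of the 11 non-ATPase cap subunits 9 were above 0 (median 0.07, range -0.05 to 0.16), and so were all 3 cap assembly chaperones, Psmd5, Psmd9 and Psmd10 (median 0.11). No gene of these groups was called by edgeR with or without the block.

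The lowest values belonged to alpha subunits. Psma3 (Entrez 19167; chromosome 12, 70969283 to 70995877) was at 19.9, 12.8 and 14.1 CPM untreated and 14.1, 12.4 and 11.3 CPM after CpG (libraries 2, 3 and 4; log2 fold change -0.30, SE 0.19, edgeR adjusted p = 0.619), and Psma6 (Entrez 26443; chromosome 12, 55384222 to 55418459) was at 130, 78.4 and 93.3 CPM and at 100, 76.3 and 88.0 CPM (-0.19, SE 0.19, edgeR adjusted p = 0.803). Without untreated library 2 the value of Psma3 was -0.077. These 2 were the genes of the 40 that were lower in the CpG-pretreated library of all 3 numbers, while 15 were higher in all 3. The third lowest was Psmb6, given above. Within numbers 2, 3 and 4, 24, 34 and 23 of the 40 genes were above 0, with medians of 0.06, 0.12 and 0.03. How many of all genes tested were above 0 within a number, or kept 1 direction in all 3, was not counted. These counts of the 40 are therefore a description only.

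The libraries numbered 2 were high for most of these genes. In untreated library 2, 38 of the 43 genes were above their group mean on the log2 scale, by 0.19 on average, and in CpG-pretreated library 2 it was 41 of 43, by 0.17. The means of the other libraries were -0.12 and -0.07 for untreated 3 and 4 and -0.04 and -0.13 for CpG-pretreated 3 and 4. Summed over the 43 genes, the levels were 5149, 4136 and 4285 CPM untreated and 5652, 4994 and 4496 CPM after CpG (libraries 2, 3 and 4). The 2 libraries numbered 2 also showed a trend with gene length over the 11602 genes tested, with Spearman correlations of -0.67 and -0.55 between a gene's length and its deviation from the group mean, where the other 4 lay between 0.23 and 0.53. These correlations are across genes of 1 library, which are not independent, and the part of gene length in the levels of the 43 genes was not tested. The median spread of the 43 genes within groups (pooled SD of log2 CPM) was 0.19, against 0.18 for all genes tested.

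Several subunits have near-identical sequence in the transcripts of other annotated genes, and its part in their levels was not tested. The longest coding transcript of each gene in GENCODE M21 (GRCm38) was compared with the transcripts of all other annotated genes, and matches of at least 95% identity over at least 100 bases were kept. For 8 genes (Psma4, Psma5, Psmb3, Psmb5, Psmc1, Psmd2, Psmd11 and Psme2) such matches covered at least 50% of the transcript. Their untreated levels were 10.2 to 56.7 CPM per kb, with a median of 32.0. The other 35 stood at 7.64 to 327 CPM per kb, with a median of 73.8, so the ranges overlapped. Low levels were also found without any match: Psmd9, Psmf1, Psmd10, Psme4 and Psmd5 had none and stood below 32.0 CPM per kb. Psmb5 was matched over 88.4% by the pseudogene Gm3375, Psmb3 over 80.7% by 3 pseudogenes, Psma5 over 76.5% by 2 and Psme2 over 82.5% by Psme2b. Psma3 was matched over 32.5%.

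Subunits of the constitutive core are built in at equal numbers, which makes their transcript levels worth comparing. Immuno subunits can take the place of Psmb5, Psmb6 and Psmb7, so equal numbers cannot be assumed for these genes. Of the 14 genes, 8 had no match in another annotated gene (Psma1, Psma2, Psma6, Psma7, Psmb1, Psmb2, Psmb4 and Psmb6). These stood at 62.4 to 149 CPM per kb, and the 6 with a match at 10.2 to 87.0. Psmb7, the highest of the 6, was matched only by the protein-coding gene Nek6 and by no pseudogene. The grouping by match was made after the levels were seen and was not tested. No source used here states how reads that match several places were counted, so the levels of matched genes are uncertain. The immuno subunits were matched over 7.62% (Psmb8, by the antisense gene Gm20496), 15.7% (Psmb9, by the overlapping end of Tap1) and 0% (Psmb10). Without a stated strand setting, reads in those overlaps cannot be told apart.

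**Figure D4:**
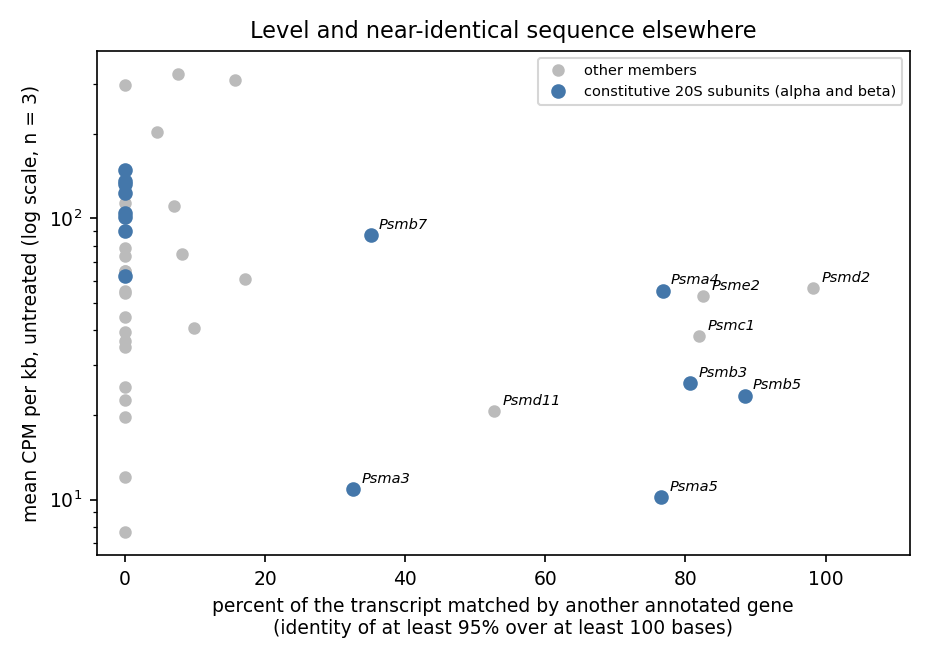
Mean untreated level of each of the 43 genes (CPM per kb, log scale, n = 3) against the percentage of its transcript that another annotated gene matches at 95% identity or more. Blue points are the 14 constitutive core subunits, and the 8 of them without a match lie at 62.4 CPM per kb or above.

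Genes that act before and after the immunoproteasome were read from lists of the pathway. Of 11 genes of interferon signalling, 0 were called by edgeR without the block (5 at an unadjusted p under 0.05, against 12.8% of all genes). With the block 4 of 11 rose, against 4.73% of all genes, and they were Nlrc5, the transactivator of class I genes (0.89, adjusted p = 0.00145), Irf1 (0.52, 0.00845), Irf8 (0.75, 0.0185) and Stat2 (0.29, 0.0447), all edgeR adjusted p-values. Nlrc5 was at 165, 224 and 203 CPM untreated and 321, 508 and 290 CPM after CpG. Irf1 was at 287, 265 and 252 CPM and 391, 474 and 302 CPM, and neither gene overlapped between groups. In this list 4 of 11 genes were higher in every CpG-pretreated library, against 9.20% of all genes tested. Lower in every one was 1 of 11, against 1099 of 11602 genes tested. None was called lower, and the list median without the block was 0.09.

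Of 12 genes that handle peptides after the proteasome, 0 were called by edgeR without the block (5 at an unadjusted p under 0.05, against 12.8% of all genes) and 4 rose with it, against 4.73%. They were Tap1, which carries peptides into the endoplasmic reticulum (0.63, edgeR adjusted p = 0.000766), B2m, the class I light chain (0.27, 0.0222), Tapbpl, a peptide editor (0.48, 0.0297), and Erap1, which trims peptides (0.30, 0.0321). Tap1, whose window overlaps that of Psmb9, was at 496, 487 and 435 CPM untreated and 772, 893 and 566 CPM after CpG (libraries 2, 3 and 4), and its list had a median of 0.25 without the block. In the list of ubiquitin and its activation, with 6 of 9 genes tested, 1 rose with the block, Ube2l6, the conjugating enzyme for the ubiquitin-like protein Isg15 (1.40, edgeR adjusted p = 0.0161), and 0 without it (3 at an unadjusted p under 0.05).

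Genes that build the proteasome or switch on its transcription were not called. This held for 6 of 7 assembly factors tested (median 0.03), 7 of 8 associated subunits (0.08), 9 of 9 genes of proteasome transcription (0.03) and 5 of 5 shuttle factors that bring substrates (0.09), with 0 genes called by edgeR with or without the block, 0 at an unadjusted p under 0.05 without it and 2 with it (against 12.8% and 21.6% of all genes). Nfe2l1, whose protein raises transcription of proteasome genes when proteasome activity falls short, was at 150, 184 and 174 CPM untreated and 153, 168 and 172 CPM after CpG (libraries 2, 3 and 4; log2 fold change -0.04, SE 0.11, edgeR adjusted p = 0.950).

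The differences of the immuno subunits and of the genes read beside them varied across numbers. For numbers 2, 3 and 4, log2 differences between the CpG-pretreated and the untreated library were 0.36, 0.73 and 0.17 for Psmb8, 0.40, 0.71 and 0.35 for Psmb9 and 0.52, 0.82 and 0.29 for Psmb10. For Irf1 they were 0.45, 0.84 and 0.26, for Nlrc5 0.96, 1.18 and 0.52, and for Tap1 0.64, 0.87 and 0.38. Each of these 6 genes thus had its largest difference in number 3 and its smallest in number 4. So did Stat2 and Tapbpl, and 10 of the other 40 proteasome genes, Psme1 among them, so the order is not particular to these genes. Irf8, Ube2l6 and Erap1 had their largest difference in number 2, and B2m had its smallest there. With 3 numbers this is a description and no test. After CpG, summed erythroid markers came to 980, 924 and 206 CPM (libraries 2, 3 and 4), also lowest in number 4, against 21.3, 87.1 and 23.5 CPM untreated, and dividing-cell markers at 1322, 1144 and 1162 CPM against 669, 776.9 and 791 CPM. Red pulp macrophage markers came to 350, 418 and 473 CPM after CpG against 505, 646 and 661 CPM untreated. Those of CD8-negative conventional dendritic cells came to 4850, 5082 and 5978 CPM against 5723, 6200 and 6224 CPM. The part of any of these markers in the rise of the immuno subunits was not tested.

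**Figure D5:**
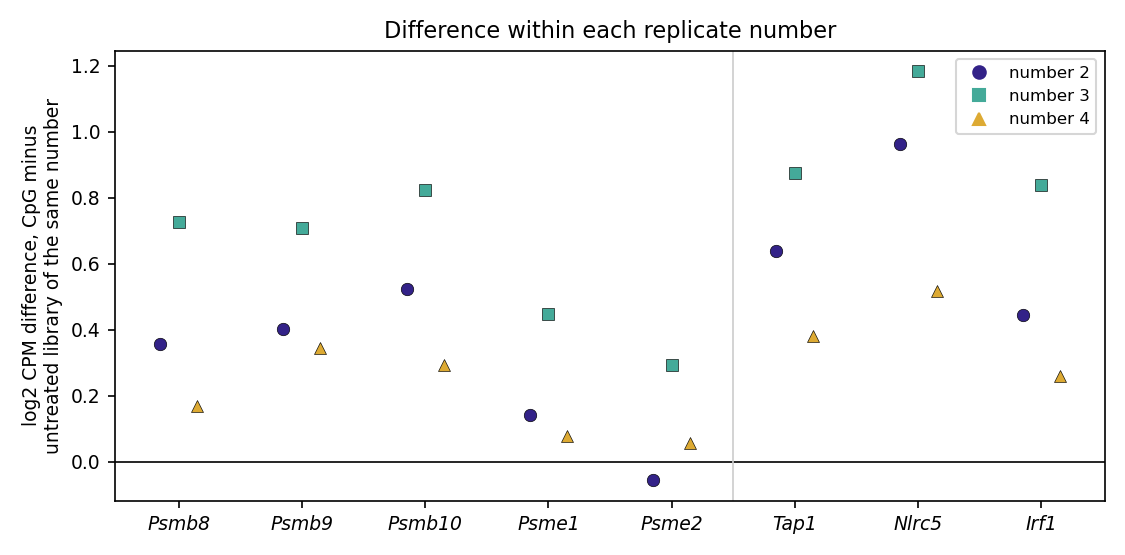
Difference in log2 CPM between the CpG-pretreated and the untreated library of the same number for the interferon-inducible proteasome genes (left) and Tap1, Nlrc5 and Irf1 (right). Colours and symbols give the library number, and number 4 has the smallest difference in Psmb8, Psmb9 and Psmb10, at 0.17 to 0.35.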

How the data were processed

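The authors deposited unnormalized read counts, as whole numbers, for 27179 genes named by Entrez ID in 6 libraries. Per the submitters' processing notes, the authors used CASAVA and featureCounts with the mm10 build, while versions, aligner, strand setting and the rule for reads with several matches are stated in no source used here. The deposited table also holds a gene length in bases, used for levels per kb. The counts deposited per sample equalled the table in 6 of 6 libraries. Symbols were taken from RefSeq (GRCm38.p6), with 25275 IDs matched and 1904 not, the latter holding 0.327% of counts.

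Genes were kept by filterByExpr (minimum count 10, minimum total 15), which left 11602. They were analysed with edgeR 4.0.16 in R 4.3.3 by TMM scaling, robust dispersions and the quasi-likelihood test, and p-values were adjusted over all genes tested by the Benjamini-Hochberg method, with calls under 0.05. The filter, scaling and test were checked on simulated data. CPM use TMM-scaled library sizes. Differences within numbers use log2(CPM + 0.25). Limma 3.58.1 (voom) and DESeq2 1.42.0 served as alternatives, and BLAST 2.17.0 found sequence copies. The series calls the 3 libraries of a group biological replicates without naming animals or pools, so p-values reflect the spread between these libraries.

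Deviations from the group means correlated across genes at 0.48, 0.25 and 0.31 between libraries of equal number (2, 3 and 4), each over 0.1. Between libraries of unequal number they lay between -0.39 and 0.07. The deviations of a group cancel out for each gene, so positive values at equal number force the others down on balance. The values at unequal number are therefore no separate evidence of pairing. The libraries numbered 2 shared a trend with gene length (-0.67 and -0.55), and its part in these correlations was not tested. Libraries of equal number were treated as pairs on the correlations at equal number. The pairing rests on the same counts as the calls with the block, as no label explains the numbers. The principal fit leaves the number out.

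The 43 genes and all lists were chosen with earlier results of these data known. Described singly were the interferon-inducible genes, the active-site subunits, Pomp, genes called with or without the block, and the 3 highest and 3 lowest fold changes, and, of the pathway lists, called genes with Irf1, Nlrc5, Tap1 and Nfe2l1. Protein sequences were not used here. One gene of the interferon signalling list is not reported here.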

Additional observations from a re-analysis of the deposited data

How the results depend on the processing

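Without the block, 0 of the 43 genes were called under every scaling, filter and tool tried and without any single library (0 to 0). With the replicate block 3 were called, and with the replicate block without number 2, 3 or 4, an alternative chosen after seeing the data, 1, 1 and 6. Over all genes tested, 113 were called without the block, against 428 by DESeq2, 41 by limma-voom, 189 with no filter, 988 with the block and 0 to 386 without single libraries. The log2 fold changes of Psmb8, Psmb9 and Psmb10 stayed above 0 in all settings, at 0.26 to 0.58, 0.37 to 0.65 and 0.41 to 0.71, and so did the log2 ratio difference of each immuno subunit over its partner, at 0.27 to 0.42, 0.35 to 0.71 and 0.23 to 0.52. Among the genes described singly, small differences changed sign when 1 library was left out, with ranges of -0.091 to 0.34 for Psme2, -0.036 to 0.21 for Psmb5, -0.19 to 0.13 for Psmb6, -0.0051 to 0.30 for Psmb7, -0.032 to 0.28 for Pomp and -0.34 to 0.054 for Psma6. With the block but without number 3, Psme2 was at -0.0030 and Psmb5 at -0.073. The cause was not tested. With 3 libraries a group, the exact test cannot go below 0.10, and the paired sign-flip test gave 0.25 at each catalytic site, the smallest it allows.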
